A study of Mus musculus with 24 samples.

Results

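Antigen presentation through MHC class I was followed through 10 genes: the heavy chains H2-K1 and H2-D1, the light chain B2m, the peptide transporter subunits Tap1 and Tap2, the loading factor Tapbp (tapasin), the immunoproteasome subunits Psmb8, Psmb9 and Psmb10, and the transcriptional regulator Nlrc5. They were taken by name from the count tables, where they are 10 of 23364 gene symbols, and all 10 passed the filter on low counts that left 21456 genes. The study sequenced RNA from haematopoietic stem cells (HSC) and from the multipotent progenitors MPP1 and MPP2 of mice lacking Mysm1, a histone deubiquitinase, and of controls. KO mice were Mysm1fl/fl CreERT2 and Het mice were Mysm1+/fl CreERT2. Both received tamoxifen, in 8 injections of 0.15 mg per g body weight over 16 days, which deletes Mysm1 exon 3 from the floxed alleles. Sham mice, labelled Mysm1-WT, were Mysm1 fl mice given corn oil, so they differ from KO in tamoxifen as well as in the deletion. Whether Sham mice carry CreERT2 is not given in the sources used here, so the Cre may differ as well. All groups were C57BL/6 mice of both sexes aged 8 to 12 weeks, and the driver of CreERT2 is not given in the sources used here. The sorted cells were negative for lineage markers and Flt3 and positive for cKit, Sca1 and CD150. HSC were CD34-CD48-, MPP1 were CD34+CD48- and MPP2 were CD34+CD48+. Each population has 3 KO, 3 Het and 2 Sham libraries, numbered 1, 2_3 and 4, with number 1 missing in Sham. Each library pools the cells of several mice, so a p-value here reflects how pools differ, not how single mice do. In bulk RNA, fewer cells that express a gene and less of its RNA per cell cannot be told apart.

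MHC class I molecules show fragments of a cell's own proteins to CD8 T cells, and the heavy chain itself is read by receptors of natural killer cells. The peptides are cut by the proteasome, in which Psmb8, Psmb9 and Psmb10 can replace the constitutive catalytic subunits Psmb5, Psmb6 and Psmb7. Tap1 and Tap2 carry them into the endoplasmic reticulum, and Tapbp holds the transporter beside an empty heavy chain paired with B2m. Nlrc5 is a regulator that acts at class I promoters through a group of short DNA elements, the X and Y boxes among them. Interferons raise most of these genes in many cell types.

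The libraries held 18823971 to 53196624 counts, of which the 10 genes took 0.220% to 0.495%, or 65528 to 187928 counts. HSC KO library 1 and HSC Het library 2_3 detected the fewest genes, 15740 and 15932, against at most 21150. Mysm1 itself was counted at 76.7 to 121 CPM (TMM-normalised library counts) in KO libraries, 98.5 to 138 CPM in Het and 108 to 121 CPM in Sham. These are counts over the whole gene, so they do not check the deletion of exon 3. MPP2 Het library 2_3 stood apart with 2189 CPM of Mpo, a granule protein of neutrophils and their precursors, against at most 184 CPM in the other libraries. Of the 6 genes used in the sort, Cd48 was higher in MPP2 than in HSC among Het libraries, at 18.5 CPM in MPP2 Het and 1.55 CPM in HSC Het. The 3 that all cells were gated positive for were lower in MPP2 Het: Ly6a (Sca1) by -3.18 ± 0.42 on the log2 scale, at 2.70 CPM in MPP2 Het and 24.3 CPM in HSC Het, Slamf1 (CD150) by -0.88 ± 0.21 and Kit by -0.68 ± 0.14. Ly6a was also higher in MPP2 KO than in MPP2 Sham, at 6.39 CPM in KO and 1.20 CPM in Sham (log2 difference 2.42 ± 0.49, adjusted p = 0.0128). Cd34 averaged 144 CPM in MPP2 Het, 132 CPM in MPP1 Het and 75.2 CPM in HSC Het.

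Of the 10 genes, 7 lie in the MHC region of chromosome 17, within 1351601 bases from Tapbp to H2-D1 in mm9. Tap1 (chr17:34324498-34334170, plus strand) and Psmb9 (chr17:34318932-34324697, minus strand) are transcribed away from each other, and their annotated 5′ exons overlap, the second annotated Psmb9 model (chr17:34318933-34324709) included. Psmb8 (chr17:34334666-34338399, plus) begins 495 bases after Tap1, and Tap2 (chr17:34340472-34353266, plus) 2072 bases after Psmb8. Tapbp (chr17:34052844-34066235, plus) and H2-K1 (chr17:34132962-34137278, minus) lie on one side of this group and H2-D1 (chr17:35399675-35404444, plus) on the other. B2m is on chromosome 2 (chr2:121973422-121978819, plus). Nlrc5 (chr8:96996663-97051172, plus) and Psmb10 (chr8:108459628-108462292, minus) are both on chromosome 8. Tap1 and Psmb9 share 212 exonic bases on opposite strands, 3.87% of those of Tap1 and 5.79% of those of Psmb9. The kit keeps the strand of the RNA, but the strand setting of the counting is not given in the sources used here, so reads in that stretch may be counted for either gene. Of all 50-base windows of the H2-D1 transcript 14.3% also occur in transcripts of other genes, and of H2-K1 8.87%. Other H2 genes held 250 of these 294 windows of H2-D1 and all 138 of H2-K1. Counts of these paralogs are uncertain to that extent. The share was 0.861% or less for Tap1, Tap2 and Tapbp and 0 for B2m, Psmb8, Psmb9 and Psmb10, while the annotation gave no coding transcript for Nlrc5.

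The sequences before the start sites are shown for Tap1 and Psmb9, both called higher in KO, and for H2-K1, H2-D1 and B2m, whose windows share an order of elements. They are RefSeq sequences of GRCm38.p6, 5′ to 3′ on the named strand, and 8 of the 10 genes had an entry there, all but Tap2 and Nlrc5. In the RefSeq entries a single stretch of 225 bases (chr17:34187331-34187555, plus strand) lies between the starts of Tap1 and Psmb9, and both genes are read outward from it. In the mm9 annotation above the gene models overlap instead, so the annotations disagree on these starts. The others are the 250 bases before the start of H2-K1 (chr17:34000348-34000597, minus strand), H2-D1 (chr17:35262844-35263093, plus) and B2m (chr2:122147437-122147686, plus). Capitals mark the motifs found on either strand: CCAAT (the Y box), TGACG (a motif within the X box), GGGCGG (the GC box), the NF-kB consensus and the core of the interferon response element, which is GAAA, a gap of 2 bases and again GAAA.
Tap1 and Psmb9, between the starts: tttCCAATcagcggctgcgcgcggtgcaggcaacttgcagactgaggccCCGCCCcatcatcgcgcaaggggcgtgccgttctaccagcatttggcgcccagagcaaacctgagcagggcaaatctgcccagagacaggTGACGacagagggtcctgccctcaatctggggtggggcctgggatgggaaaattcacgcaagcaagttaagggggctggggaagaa
H2-K1: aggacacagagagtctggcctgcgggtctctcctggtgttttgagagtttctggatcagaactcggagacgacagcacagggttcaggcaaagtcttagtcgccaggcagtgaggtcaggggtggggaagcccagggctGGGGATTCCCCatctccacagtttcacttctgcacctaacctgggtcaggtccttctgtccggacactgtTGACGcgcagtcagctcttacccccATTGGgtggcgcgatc
H2-D1: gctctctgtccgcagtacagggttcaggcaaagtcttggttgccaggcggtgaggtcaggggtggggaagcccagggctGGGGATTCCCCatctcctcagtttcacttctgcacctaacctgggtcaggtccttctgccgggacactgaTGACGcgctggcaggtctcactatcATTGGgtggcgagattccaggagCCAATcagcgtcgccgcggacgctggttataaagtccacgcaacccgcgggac
B2m: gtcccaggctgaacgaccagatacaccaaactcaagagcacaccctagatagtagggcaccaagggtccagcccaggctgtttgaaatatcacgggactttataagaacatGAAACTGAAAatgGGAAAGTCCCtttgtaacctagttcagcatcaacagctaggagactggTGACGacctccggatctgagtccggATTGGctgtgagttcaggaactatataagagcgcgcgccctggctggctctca
In H2-K1, H2-D1 and B2m, TGACG and the next CCAAT (read as ATTGG on this strand) began 25 bases apart. Of 32851 RefSeq windows of 250 bases, 6.12% held both motifs and 0.0913%, or 30 windows, held them at this distance. The distance was chosen after these sequences were seen. Beside these 3 members, H2-M3, a nonclassical class I gene, was among the 30. The stretch between Tap1 and Psmb9 held the Y box once, TGACG once and the GC box once, without that spacing. The NF-kB consensus was found in H2-K1 and H2-D1, as 2 overlapping matches in each, and in B2m, against 3.9% of all windows. The interferon response core was found in B2m and in 2.98% of windows. Only these exact letters were searched, so a variant would be missed. A window without a match, as in H2-K1 and H2-D1, is not shown to lack such an element. Psmb8 had a match to the GAS element TTCNNNGAA, which 7.02% of windows hold, and Psmb10 had none of the motifs searched. Tapbp had 2 matches to the Y box and one to the GC box. The Y box alone occurs in 33.9% of windows, the GC box in 32.7% and TGACG in 17.8%. A match is a run of letters, not a measured site of binding. In the best local alignment of the H2-K1 and H2-D1 windows, 161 of 177 aligned positions, or 91.0%, were identical. The bases outside that alignment were not compared.

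All members were well expressed. Per length, H2-K1 averaged 1132 RPKM (CPM per kilobase of gene length) over the 24 libraries, and 77 of the 21456 genes were higher. B2m followed at 830.4 RPKM, Psmb8 at 159 RPKM, Tap2 at 64.3 RPKM, H2-D1 at 60.9 RPKM and Psmb9 at 55.4 RPKM. Psmb10 averaged 40.1 RPKM, Tap1 36.8 RPKM, Tapbp 20.2 RPKM and Nlrc5 19 RPKM, so that the regulator was the lowest member in this mean. In HSC KO and MPP1 KO Tapbp was lowest instead, at 22.4 and 21.0 RPKM, against 25.5 and 23.7 RPKM for Nlrc5. B2m exceeded Psmb8, and Psmb8 exceeded the next member, in every library of each of the 9 groups. H2-K1 and B2m overlapped in HSC Het, HSC Sham, MPP2 KO and MPP2 Het. Tap2, H2-D1 and Psmb9 overlapped as neighbours in most groups, and Tapbp and Nlrc5 did so in HSC KO and the 3 Het groups. The spread over all libraries, highest over lowest, was between 1.74-fold for H2-D1 and 2.99-fold for Nlrc5.

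Per length, H2-K1 stood above H2-D1 by a median of 19.2-fold, with 12.5-fold to 25.5-fold over the 24 libraries. The ratio of Psmb8 to its constitutive counterpart Psmb5 had a median of 4.59 and a range of 2.82 to 8.66. The other inducible subunits were nearer to or below theirs: Psmb9 over Psmb6 had a median of 0.624, and Psmb10 over Psmb7 a median of 0.760. Psmb10 over Psmb7 was lowest in MPP2. It was 0.461 ± 0.0239 in MPP2 KO and 0.479 ± 0.0251 in MPP2 Het, 0.752 ± 0.0400 in MPP1 KO and 0.737 ± 0.107 in MPP1 Het, and 0.899 ± 0.0542 in HSC KO and 0.979 ± 0.0917 in HSC Het (SD, n = 3 each). Within a cell type KO and Het overlapped in this ratio, while the MPP2 libraries of both genotypes lay below the HSC libraries of both.

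**Figure D1:**
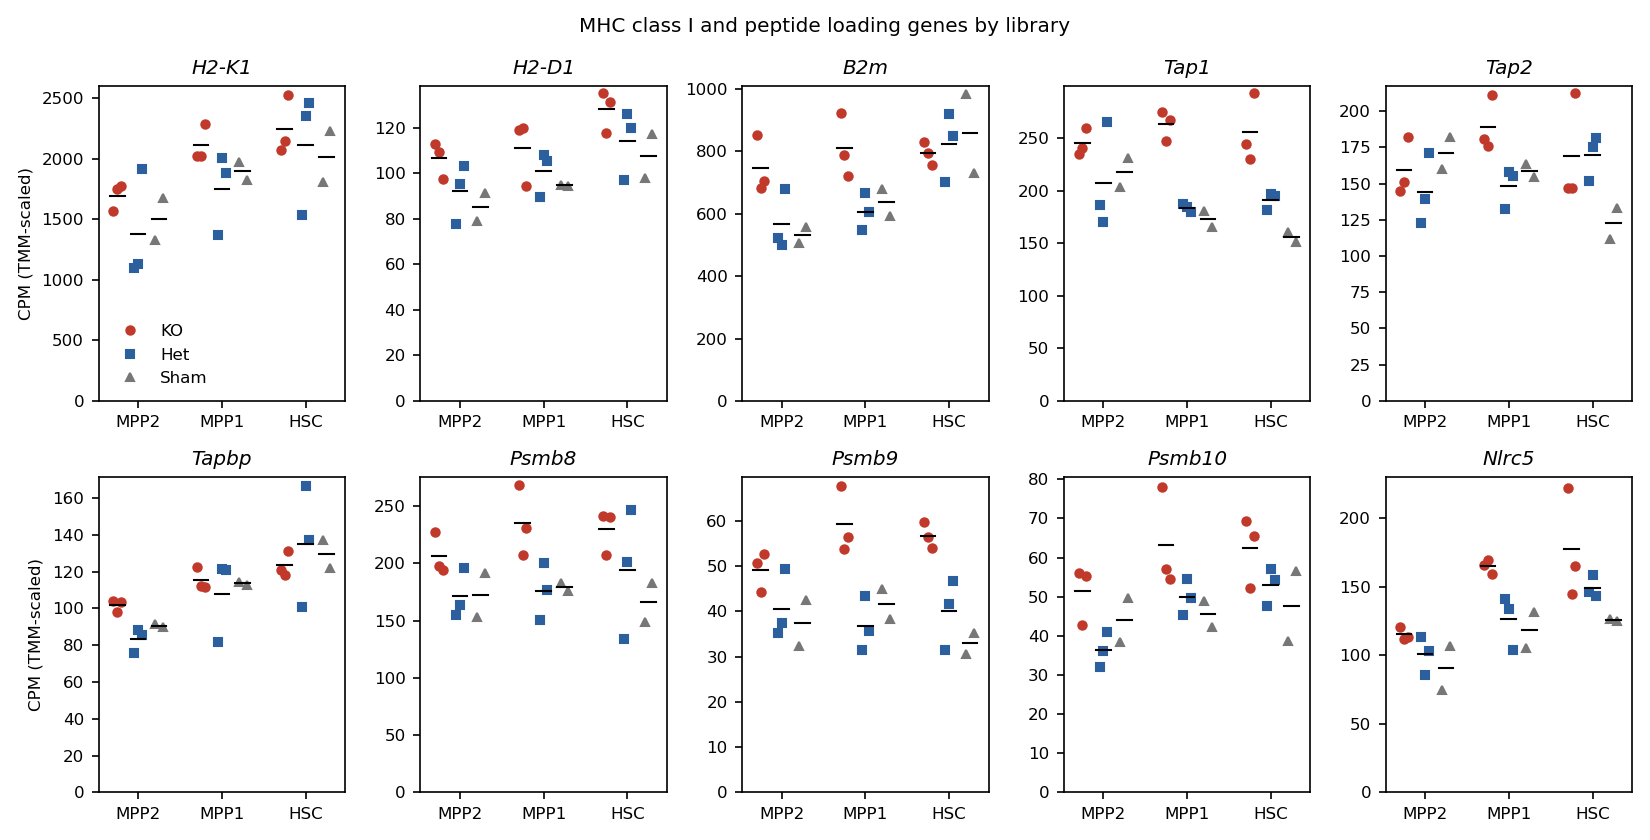
Level of each of the 10 genes in every library, in CPM on a linear axis from 0, by cell type and genotype, with KO left of Het and Het left of Sham; points are libraries and short bars group means. Psmb9 in MPP1 lies at 53.7 to 67.7 CPM in KO and at 31.6 to 43.4 CPM in Het, without overlap, while Tap2 in HSC overlaps at 147 to 212 CPM in KO and 152 to 182 CPM in Het.

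The main comparison set KO against Het, since both received tamoxifen, and asked how the loss of both Mysm1 alleles changed these transcripts. In no single cell type did a member pass an adjusted p of 0.05, in a quasi-likelihood F test of edgeR with Benjamini-Hochberg adjustment over 21456 genes. DESeq2 and limma also called 0 of 10 in each. At an unadjusted p under 0.05 there were 2 members in HSC, 6 in MPP1 and 2 in MPP2. Among all 21456 tested, that unadjusted level was reached by 3106 (HSC), 1860 (MPP1) and 1207 (MPP2). Of all genes 0.615% passed the adjusted threshold in HSC, while 0.0559% did in MPP1 and 0.415% in MPP2. The log2 differences, KO minus Het, were above 0 for 7 of 10 members in HSC, with a median of 0.20 against 0.03 over all genes. In MPP1 all 10 were above 0, with a median of 0.37 against -0.11 over all genes. In MPP2 all 10 were above 0, with a median of 0.27 against -0.06. Members are abundant, and the 9530 genes over 10 CPM had medians of 0.09 in HSC, 0.13 in MPP1 and 0.10 in MPP2.

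The KO libraries lay above all Het libraries for 2 members in HSC, Tap1 and Psmb9, where 7.16% of all genes did so. They did so for 7 members in MPP1, all but H2-D1, Tapbp and Psmb10, against 8.49% of all genes, and for B2m, Tapbp and Psmb10 in MPP2, against 9.06%. Among genes over 10 CPM these shares were 12.9% in HSC, 16.5% in MPP1 and 16.9% in MPP2. In HSC the Het library numbered 1 was the lowest of the Het libraries for 9 of 10 members, in MPP1 for 8 and in MPP2 for 7. The KO library numbered 1 was the highest KO library for 6 members in each cell type. MPP2 Het library 4 was the highest Het library for 8 members. The Het libraries numbered 1 also stood apart in Car1, a carbonic anhydrase of the erythroid lineage that was looked at after its values were seen. Car1 was at 0.0406 to 1.69 CPM in HSC KO and at 176, 17.9 and 5.65 CPM in HSC Het, with 176 in library 1. It was at 0.793 to 4.44 CPM in MPP1 KO and at 88.4, 18.7 and 6.49 CPM in MPP1 Het, with 88.4 in library 1. In MPP2, where it was high throughout, it was at 98.7 to 189 CPM in KO and at 401, 248 and 299 CPM in Het. Without HSC Het library 1 and MPP1 Het library 1 the differences averaged over the cell types were 0.39 for Tap1 and 0.41 for Psmb9 (adjusted p = 0.00681 and 0.0123), and that of Psmb10 was 0.31 (adjusted p = 0.0819).

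Averaged over the 3 cell types in the same fit, 3 members rose: Tap1, Psmb9 and Psmb10. Of all genes 5.73% passed in this comparison, and 4.32% passed with KO higher; among genes over 10 CPM, where all members lie, 9.34% passed with KO higher. All 10 members were above 0, with a median of 0.27 against -0.05 over all genes and 0.11 over genes above 10 CPM, of which 68.2% were above 0. This test counts libraries of different cell types as independent, but same-numbered libraries deviated together across cell types, with correlations of 0.178 to 0.755 between KO libraries and 0.022 to 0.361 between Het libraries over 11036 genes. When the 3 cell types were summed by genotype and number, which leaves 3 KO against 3 Het pools and was chosen after seeing the data, 0 of 10 members passed and 78 of all genes did.

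Tap1, a subunit of the peptide transporter, had 245, 229.9 and 293 CPM in HSC KO, against 182, 197 and 195 CPM in HSC Het. In MPP1 it had 275, 248 and 268 CPM in KO and 188, 184 and 179.5 CPM in Het. In MPP2 it had 235, 241 and 259 CPM in KO and 187, 170.4 and 265 CPM in Het. The groups were apart in HSC and MPP1, and in MPP2 Het library 4 lay above all KO libraries. The log2 differences were 0.42 ± 0.14, 0.52 ± 0.14 and 0.24 ± 0.14 for HSC, MPP1 and MPP2, with adjusted p of 0.164, 0.250 and 0.973. Averaged, it was 0.39 ± 0.08, or 1.31-fold (edgeR, adjusted p = 0.00489). It passed in 28 of 30 alternatives, with adjusted p between 0.000442 and 0.310. With the cell types summed the difference was 0.42 (adjusted p = 0.310), and the pools ran from 226 to 276 CPM in KO and from 177 to 217 CPM in Het.

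Psmb9, which shares the stretch between the starts with Tap1, had 59.7, 56.5 and 54.0 CPM in HSC KO and 31.6, 41.7 and 46.7 CPM in HSC Het. In MPP1 it had 67.7, 53.7 and 56.4 CPM in KO and 31.6, 43.4 and 35.6 CPM in Het. In MPP2 it had 50.6, 44.2 and 52.6 CPM in KO and 35.2, 37.4 and 49.3 CPM in Het. The groups were again apart in HSC and MPP1, and in MPP2 Het library 4 lay among the KO libraries. The log2 differences were 0.50 ± 0.18, 0.69 ± 0.18 and 0.27 ± 0.18 for HSC, MPP1 and MPP2, with adjusted p of 0.181, 0.224 and 0.993. Averaged, it was 0.49 ± 0.10, or 1.40-fold (edgeR, adjusted p = 0.00509), and it passed in 29 of 30 alternatives, with adjusted p between 0.00137 and 0.257. The summed pools were again apart, at 47.7 to 63.3 CPM in KO and 31.3 to 44.6 CPM in Het, with adjusted p = 0.257. Beside Tap1 and Psmb9, only Nlrc5 had pools apart, at 132 to 175 CPM in KO and 117 to 127 CPM in Het. The share of all genes with pools apart was not counted.

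Psmb10, the immunoproteasome subunit encoded outside the MHC, had 56.2, 42.8 and 55.3 CPM in MPP2 KO, against 32.1, 36.2 and 40.9 CPM in MPP2 Het. In HSC it had 69.2, 52.2 and 65.5 CPM in KO and 47.6, 57.1 and 54.3 CPM in Het. In MPP1 it had 78.1, 57.2 and 54.4 CPM in KO and 45.4, 54.6 and 49.6 CPM in Het. Only the MPP2 libraries were apart. The averaged difference of 0.36 ± 0.10 (edgeR, adjusted p = 0.0359) passed in 11 of 30 alternatives. Over the alternatives its adjusted p reached 0.401, and it was lost without any one of 10 libraries. They were HSC KO 1 and 4, HSC Het 1, MPP1 KO 1, MPP1 Het 1 and 4, MPP2 KO 1 and 4, and MPP2 Het 1 and 2_3. Psmb8, the third subunit, had 194 to 268 CPM in the 9 KO libraries and 134 to 247 CPM in the 9 Het libraries, with an averaged difference of 0.31 ± 0.10 (adjusted p = 0.0595).

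The heavy and light chains did not pass. B2m differed by -0.05 ± 0.15 in HSC, 0.42 ± 0.15 in MPP1 and 0.40 ± 0.15 in MPP2, with adjusted p of 0.957, 0.450 and 0.599. Its libraries were 922, 788 and 721 CPM in MPP1 KO and 547, 666 and 606 CPM in MPP1 Het. In MPP2 they were 853, 681 and 706 CPM in KO and 521, 499 and 679 CPM in Het. KO lay above Het in both, though in MPP2 the nearest pair, 681 CPM in KO and 679 CPM in Het, was close, while in HSC the groups overlapped at 758 to 829 CPM in KO and 703 to 919 CPM in Het. H2-K1 had an averaged difference of 0.22 ± 0.11 (adjusted p = 0.258) and H2-D1 of 0.17 ± 0.08 (adjusted p = 0.240). H2-K1 ran from 1564 to 2528 CPM in KO and from 1098 to 2458 CPM in Het over the 3 cell types, and H2-D1 from 94.6 to 136 CPM in KO and from 77.9 to 126 CPM in Het.

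The remaining members did not pass either. Nlrc5 had 166, 169.6 and 159 CPM in MPP1 KO and 141, 134 and 104 CPM in MPP1 Het, and its averaged difference was 0.28 ± 0.09 (adjusted p = 0.0750). Tap2, the partner of Tap1, had an averaged difference of 0.16 ± 0.09 (adjusted p = 0.319). Tapbp had the smallest one, 0.09 ± 0.09 (adjusted p = 0.624), with -0.13 ± 0.16 in HSC, 0.10 ± 0.16 in MPP1 and 0.29 ± 0.16 in MPP2. It ran from 97.9 to 131 CPM in KO and from 75.9 to 167 CPM in Het.

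**Figure D2:**
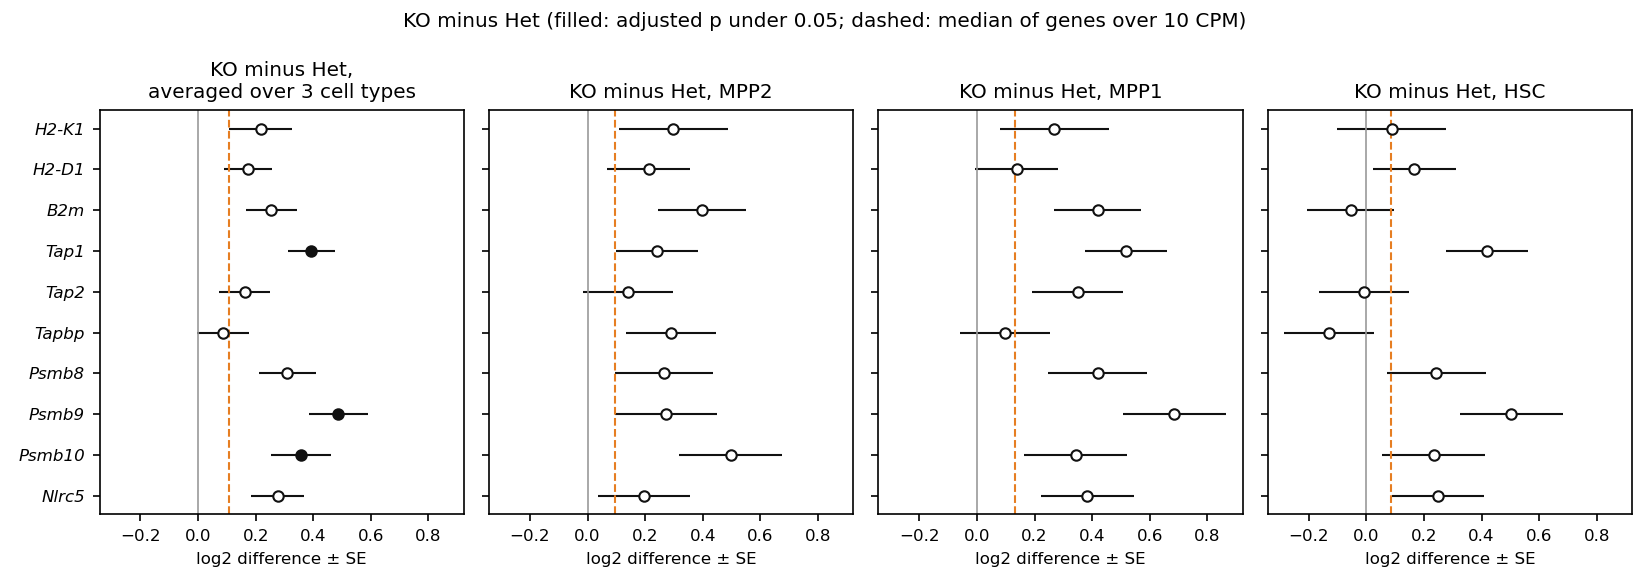
Log2 difference of KO minus Het for the 10 genes, averaged over the 3 cell types and in MPP2, MPP1 and HSC, with bars of 1 approximate standard error; filled points passed an adjusted p of 0.05, and the dashed line is the median of genes over 10 CPM. Tap1 at 0.39 and Psmb9 at 0.49 stand highest in the average, and Tapbp at 0.09 lowest.

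Whether the KO minus Het difference varied between cell types was tested directly, and no member passed in edgeR, DESeq2 or limma. At an unadjusted p under 0.05 there was 1 member for MPP1 minus HSC, 1 for MPP2 minus HSC and 0 for MPP2 minus MPP1. Of all genes 0% passed for MPP1 minus HSC, 0.0326% for MPP2 minus HSC and 0% for MPP2 minus MPP1 (1044, 1565 and 512 genes at an unadjusted p under 0.05). The widest difference among members was that of B2m, at 0.47 ± 0.22 for MPP1 minus HSC (adjusted p = 0.994).

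KO was also set against Sham, which shares the KO libraries with the comparison above. In HSC 2 members rose, Tap1 and Psmb9, where 2.28% of all genes passed and 1.9% with KO higher, or 4.19% with KO higher among genes over 10 CPM. The Sham libraries of HSC had 161 and 151 CPM of Tap1 and 30.7 and 35.2 CPM of Psmb9, below all KO libraries, as for 30.1% of genes over 10 CPM. The differences were 0.72 ± 0.16 for Tap1 (edgeR, adjusted p = 0.0175) and 0.78 ± 0.20 for Psmb9 (adjusted p = 0.0354). Tap1 passed in 6 of 14 alternatives, with adjusted p between 0.00181 and 0.257, and Psmb9 in 7 of 14, with adjusted p between 0.00989 and 0.465. Neither passed without HSC KO library 1 or without either Sham library, and Tap1 did not pass without HSC KO library 4. The median over the members was 0.43 in HSC, against 0.05 over all genes and 0.16 over genes above 10 CPM. B2m was at -0.11 ± 0.17 and Tapbp at -0.07 ± 0.17. In MPP1 the median was 0.37, against -0.11 over all genes and 0.16 over genes above 10 CPM. There 0 of 10 members passed and 0.121% of all genes did. In MPP2 the median was 0.24, against 0.10 over all genes and 0.006 over genes above 10 CPM. There 0 of 10 passed and 0.629% of all genes did. DESeq2 and limma called 0 of 10 in both as well, and 4 members in MPP1 and 1 in MPP2 had an unadjusted p under 0.05.

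Between Het and Sham no member passed in any cell type, and 0% of genes passed in edgeR's test in HSC, MPP1 and MPP2. Of the members 1 had an unadjusted p under 0.05 in HSC and 0 in MPP1 and MPP2, and DESeq2 and limma called 0. Over all genes 1485, 207 and 1141 were under 0.05 unadjusted in the 3 cell types, and DESeq2 called 79, 5 and 24. The median over the members was 0.19 in HSC, -0.05 in MPP1 and -0.04 in MPP2, against 0.09, 0.04 and -0.10 over genes above 10 CPM. Tap2 in HSC was the farthest from 0, with 152, 175 and 182 CPM in Het and 112 and 133 CPM in Sham, a difference of 0.47 ± 0.18 (adjusted p = 0.714).

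Between cell types the members were compared in the Het libraries, which the KO comparison above also uses. MPP2 was lower than HSC in 5 members: Tapbp, B2m, Nlrc5, H2-K1 and Psmb10. Of all genes 18% passed, and 8.37% passed with MPP2 lower; among genes over 10 CPM 14.1% passed with MPP2 lower. The median over the members was -0.43, against -0.01 over all genes and 0.08 over genes above 10 CPM. Tap1 and Psmb9 were not among the 5, at 0.12 ± 0.14 (adjusted p = 0.691) and 0.02 ± 0.18 (adjusted p = 0.973). The libraries did not overlap for B2m, Tapbp, Psmb10 and Nlrc5, where 11.9% of all genes were as cleanly lower, and 17.1% of genes over 10 CPM.

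Tapbp, which bridges transporter and heavy chain, had 75.9, 88.4 and 85.4 CPM in MPP2 Het and 101, 167 and 137 CPM in HSC Het. It fell by 0.70 ± 0.16 on the log2 scale (edgeR, adjusted p = 0.00166), and passed in all 17 alternatives run. B2m had 521, 499 and 679 CPM in MPP2 Het and 703, 919 and 850.0 CPM in HSC Het, and fell by 0.54 ± 0.15 (adjusted p = 0.0111). Nlrc5 had 113, 85.6 and 103 CPM in MPP2 Het and 146, 159 and 143 CPM in HSC Het, and fell by 0.57 ± 0.16 (adjusted p = 0.0116). The MPP2 libraries of these 3 genes all lay below the HSC libraries. H2-K1 had 1098, 1129 and 1911 CPM in MPP2 Het and 1536, 2350.2 and 2458 CPM in HSC Het, so that MPP2 library 4 lay above HSC library 1. It fell by 0.62 ± 0.19 (adjusted p = 0.0214). Psmb10 had 32.1, 36.2 and 40.9 CPM in MPP2 Het and 47.6, 57.1 and 54.3 CPM in HSC Het, and fell by 0.54 ± 0.18 (adjusted p = 0.0329).

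Apart from Tapbp these calls rest on few libraries. H2-K1 passed in 11 of 17 alternatives, B2m in 12, Nlrc5 in 14 and Psmb10 in 10, with adjusted p up to 0.156 among these 4. Without MPP2 Het library 2_3, the one high in Mpo, Tapbp alone passed, and likewise without HSC Het library 2_3. Without MPP2 Het library 1, Tapbp and Nlrc5 passed, and without HSC Het library 4, Tapbp, B2m and Nlrc5. In KO libraries, which share the fit but are not compared in this test, B2m averaged 747 ± 92.7 CPM in MPP2 and 794 ± 35.4 CPM in HSC. The B2m groups overlapped. Tapbp averaged 102 ± 3.41 CPM in MPP2 KO and 123 ± 6.70 CPM in HSC KO, and Nlrc5 115 ± 4.62 CPM in MPP2 KO and 177 ± 40.1 CPM in HSC KO (SD, n = 3 each). The MPP2 KO libraries lay below the HSC KO libraries for both. So they did for H2-K1, at 1564 to 1774 CPM in MPP2 KO and 2070 to 2528 CPM in HSC KO. Of the members not called in Het, H2-D1 also lay lower, at 97.6 to 113 CPM in MPP2 KO and 118 to 136 CPM in HSC KO. Psmb9 did as well, at 44.2 to 52.6 CPM in MPP2 KO and 54.0 to 59.7 CPM in HSC KO. The share of all genes apart in this way was not counted for KO. Psmb10 overlapped, at 42.8 to 56.2 CPM in MPP2 KO and 52.2 to 69.2 CPM in HSC KO.

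MPP1 set against HSC in Het gave no member past the threshold, with 0.014% of all genes passing. All 10 members were below 0, with a median of -0.18 against 0.05 over all genes and 0.01 over genes above 10 CPM. B2m was the farthest, with 547, 666 and 606 CPM in MPP1 Het and 703, 919 and 850.0 CPM in HSC Het, at -0.44 ± 0.15 (adjusted p = 0.341). MPP2 set against MPP1 in Het gave no member past the threshold either, with 7.49% of all genes passing. The median was -0.12 over the members and over all genes, and 0.08 over genes above 10 CPM. Psmb10 was the farthest there, with MPP2 Het at 32.1 to 40.9 CPM and MPP1 Het at 45.4 to 54.6 CPM, and a difference of -0.45 ± 0.18 (adjusted p = 0.137). In both comparisons DESeq2 and limma also called 0 of 10, and 2 members had an unadjusted p under 0.05.

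**Figure D3:**
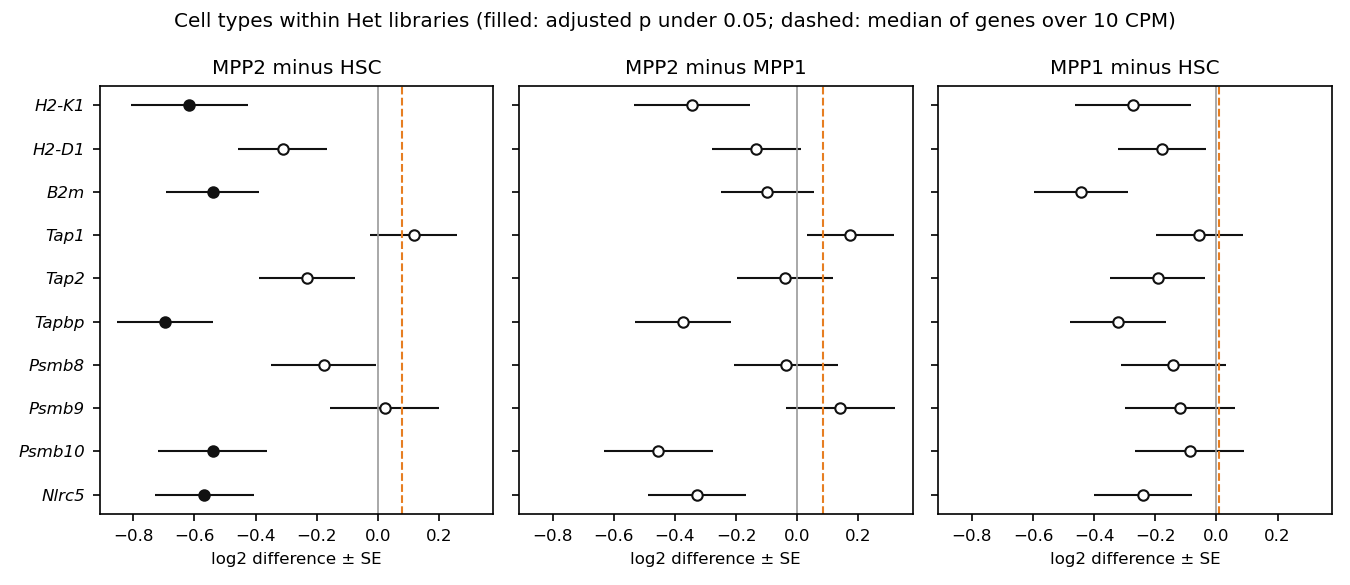
Log2 difference between cell types among Het libraries for the 10 genes, with bars of 1 approximate standard error, for MPP2 minus HSC, MPP2 minus MPP1 and MPP1 minus HSC; filled points passed an adjusted p of 0.05, and the dashed line is the median of genes over 10 CPM. Tapbp at -0.70 is lowest for MPP2 minus HSC, and Tap1 at 0.12 and Psmb9 at 0.02 lie on the other side of 0.

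Other genes of the pathway were counted in 5 lists. The 8 tested constitutive catalytic subunits, activators and assembly factors of the proteasome were all above 0 in KO against Het averaged over cell types. Their median was 0.33, and 5 of the 8 rose. Among genes over 10 CPM 68.2% were above 0 and 9.34% passed with KO higher. Psme2, a subunit of the interferon-inducible activator, rose by 0.47 ± 0.11 (edgeR, adjusted p = 0.0122), and its partner Psme1 by 0.30 ± 0.08 (adjusted p = 0.0246). Psmb6 rose by 0.38 ± 0.10 (adjusted p = 0.0189) and Psmb7 by 0.40 ± 0.11 (adjusted p = 0.0276), so counterparts that Psmb9 and Psmb10 replace moved the same way as they did. Without MPP1 KO library 1, without the 2 HSC libraries of few genes, and with cell types summed, 0 of these 8 passed. Between MPP2 and HSC in Het 2 of the 8 were higher, Psme3 by 0.92 ± 0.18 and the assembly factor Pomp by 0.58 ± 0.17 (adjusted p = 0.000436 and 0.0121). With MPP2 higher, 19.9% of genes over 10 CPM passed.

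In KO against Het averaged over cell types, 9.34% of genes over 10 CPM passed with KO higher. Of 14 genes of peptide loading and trimming, 4 rose there, with a median of 0.21. They were the cytosolic peptidase Blmh, by 0.41 ± 0.10 (adjusted p = 0.0140), and the endoplasmic reticulum chaperones Calr, Hspa5 and Pdia3, by 0.33 ± 0.08, 0.36 ± 0.10 and 0.35 ± 0.11. With cell types summed 0 passed, and without MPP1 KO library 1 a single one did. In MPP2 against HSC in Het, 7 of the 14 were higher and the median was 0.44, so this list lay on the other side of 0 from the members. Among genes over 10 CPM 19.9% passed with MPP2 higher. Canx, a chaperone of newly made heavy chains, was higher by 0.67 ± 0.13, with 1490 CPM in MPP2 Het and 934 CPM in HSC Het (adjusted p = 0.000482). Hspa5 was higher by 0.85 ± 0.18 (adjusted p = 0.000688) and Calr by 0.64 ± 0.14 (adjusted p = 0.00119). Scaling by library totals left 3 of these 14 higher and 2 lower in MPP2.

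Among 25 nonclassical class I and related genes, H2-Q6, H2-Q7 and H2-Q9 had a count of 0 in all libraries. H2-Q6 and H2-Q7 share 50-base windows with H2-K1 and H2-D1. The handling of reads with several matches is not given, so these counts of 0 say little. Of the 25 genes 20 were tested. A single one rose in KO against Het averaged over cell types, H2-M3, which presents formylated peptides, by 0.41 ± 0.13 (adjusted p = 0.0478), and it did not pass with cell types summed. The median of the list was 0.01, or -0.09 when scaled by library totals. With KO higher, 4.32% of all genes and 9.34% of genes over 10 CPM passed. In MPP2 against HSC in Het 5 of the 20 fell, with a median of -0.49, where 8.37% of all genes and 14.1% of genes over 10 CPM fell. Fcgrt, the neonatal Fc receptor, averaged 3.08 CPM in MPP2 Het and 28.8 CPM in HSC Het, and fell by 3.23 ± 0.45 (adjusted p = 1.9e-05). H2-M3 fell by 1.01 ± 0.22, H2-T23 by 0.57 ± 0.19 and Mr1 by 1.00 ± 0.34. Without MPP2 Het library 1, or without either number 2_3 library of the pair, 2 passed, and 11 did without MPP2 Het library 4.

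Of 20 regulators of class I genes, 4 rose and 1 fell in KO against Het averaged over cell types. The median of the list was 0.06, or -0.03 when scaled by library totals. Among genes over 10 CPM 9.34% rose and 2.08% fell. Irf1, an interferon-induced transcription factor, rose by 0.34 ± 0.10 (adjusted p = 0.0436). Nfkb1 rose by 0.31 ± 0.08 (adjusted p = 0.0116) and Nfyb, a subunit of the factor that binds CCAAT, by 0.32 ± 0.09 (adjusted p = 0.0268). Ifngr1, a subunit of the interferon gamma receptor, fell by 0.35 ± 0.11 (adjusted p = 0.0435). With cell types summed 0 passed. In MPP2 against HSC in Het, 3 rose and 6 fell, where 19.9% of genes over 10 CPM rose and 14.1% fell. Irf1 fell by 1.38 ± 0.18, with 41.2 CPM in MPP2 Het and 107 CPM in HSC Het (adjusted p = 2.43e-06). Irf2 fell by 1.03 ± 0.18 (adjusted p = 0.000124). Ciita, a relative of Nlrc5 that drives MHC class II genes, was rare, at 2.56 CPM in MPP2 Het and 12.8 CPM in HSC Het, and fell by 2.32 ± 0.42 (adjusted p = 0.000162).

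Of 40 interferon-induced genes 39 were tested. In MPP2 against HSC in Het 29 of them fell, with a median of -0.95 against -0.43 over the 10 members. There 8.37% of all genes and 14.1% of genes over 10 CPM fell. Iigp1, an interferon-induced GTPase, had 29.2 CPM in MPP2 Het and 142 CPM in HSC Het, and fell by 2.29 ± 0.18 (adjusted p = 2.54e-09). Gbp2, another GTPase, fell by 1.84 ± 0.18, Irgm2 by 1.79 ± 0.17 and Ddx58, a sensor of viral RNA, by 1.16 ± 0.14. Between 24 and 30 of the 39 fell in the alternatives run. In KO against Het averaged over cell types 2 of 39 rose, where 4.32% of all genes and 9.34% of genes over 10 CPM did. They were Ifi47, by 0.57 ± 0.11 (edgeR, adjusted p = 0.00173), and Igtp, by 0.40 ± 0.10 (adjusted p = 0.0196). The median of the list was 0.07, or -0.03 when scaled by library totals, and 0 passed with cell types summed. In KO against Het within single cell types, 0 genes of these 5 lists passed.

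Set against MPP1 in Het, MPP2 was lower in 18 of 39 interferon-induced genes and higher in 0, with a median of -0.62 against -0.12 over the members. Among genes over 10 CPM 7.47% passed with MPP2 lower and 7.05% with MPP2 higher. Gbp6, a GTPase, had 9.73 CPM in MPP2 Het and 53.3 CPM in MPP1 Het, and fell by 2.45 ± 0.34 (edgeR, adjusted p = 0.000183). Iigp1 fell by 1.75 ± 0.18, with 29.2 CPM in MPP2 Het and 97.9 CPM in MPP1 Het. Irf1 fell by 1.12 ± 0.18, and Ifngr1 rose by 1.27 ± 0.19, at 202 CPM in MPP2 Het and 84.0 CPM in MPP1 Het. Tapbpl, a relative of tapasin that edits peptides, fell by 0.63 ± 0.20 (adjusted p = 0.0456), while Canx rose by 0.56 ± 0.13 (adjusted p = 0.00837). Between MPP1 and HSC in Het 0 genes of the 5 lists passed, and 6 of 39 interferon-induced genes were above 0, with a median of -0.35.

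Set against Sham, with the same KO libraries, KO was higher in HSC for 3 of 14 loading and trimming genes, Hspa5, Calr and Blmh. Hspa5 rose by 0.98 ± 0.20, at 774 CPM in HSC KO and 394 CPM in HSC Sham (edgeR, adjusted p = 0.00994). Psmb5, the counterpart of Psmb8, rose by 0.96 ± 0.21, with 31.5 CPM in HSC KO and 16.2 CPM in HSC Sham (edgeR, adjusted p = 0.0151). It was the only 1 of 8 genes of the proteasome list to pass there. Of the 39 interferon-induced genes, 1 rose in HSC, 1 in MPP1 and 3 in MPP2, with list medians of 0.12, -0.03 and 0.15. The medians over all genes were 0.05, -0.11 and 0.10. Among genes over 10 CPM 4.19%, 0.178% and 0.934% passed with KO higher in these cell types. Ifi47, an interferon-induced GTPase, rose in each cell type, by 0.78 ± 0.21 in HSC, 1.02 ± 0.21 in MPP1 and 0.96 ± 0.21 in MPP2. In MPP2 Iigp1 rose by 1.02 ± 0.21 and Irgm2 by 0.81 ± 0.19. Of the 20 regulators, 1 rose and 1 fell in MPP2. Irf1 rose by 0.86 ± 0.20, and Ifngr1 fell by 1.18 ± 0.20, at 141 CPM in MPP2 KO and 321 CPM in MPP2 Sham. Each Sham group has 2 libraries. Without Sham library 2_3 the genes past the threshold in KO against Sham numbered 38 in HSC, 0 in MPP1 and 5 in MPP2, against 490, 26 and 135 with it, and the lists were not counted again there.

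**Figure D4:**
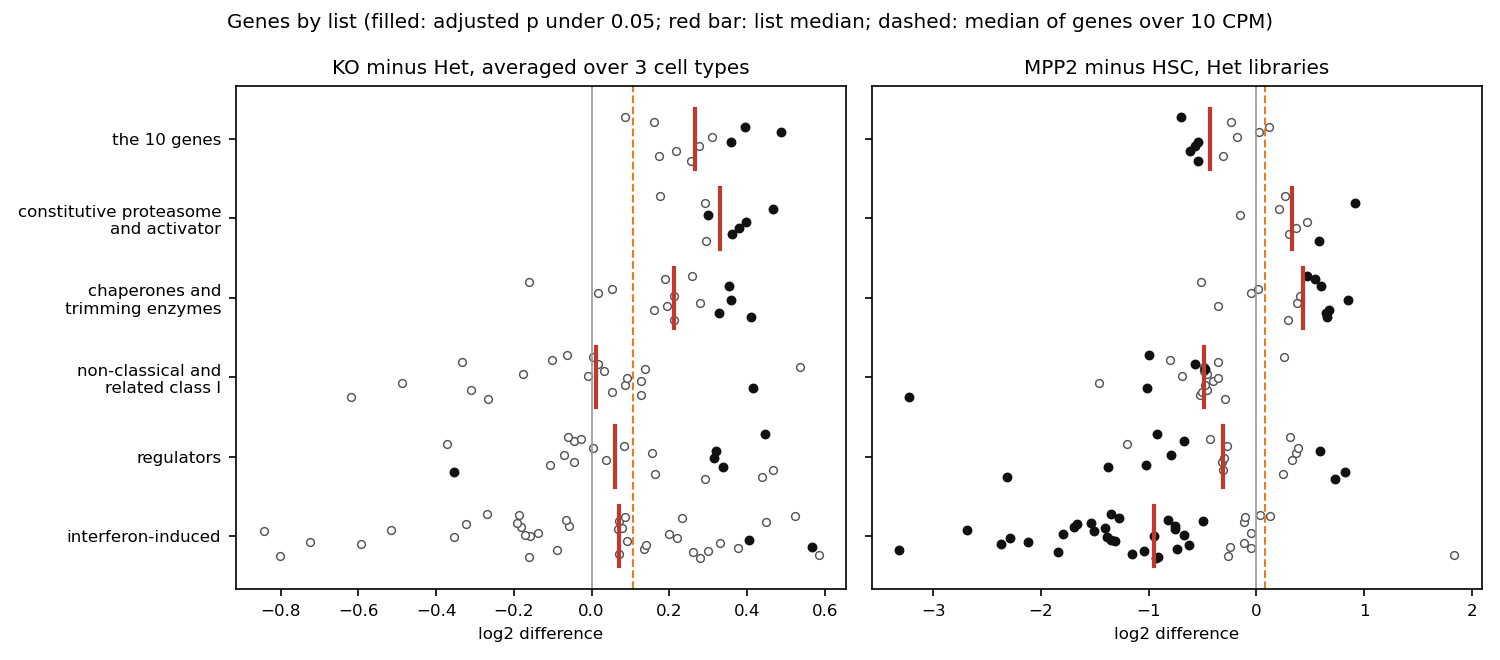
Log2 differences of the tested genes of each list and of the 10 members, for KO minus Het averaged over the cell types and for MPP2 minus HSC in Het; points are genes, filled where they passed an adjusted p of 0.05, red bars list medians, and the dashed line the median of genes over 10 CPM. For MPP2 minus HSC the interferon-induced list has its median at -0.95, the members at -0.43 and the chaperones and trimming enzymes at 0.44.

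Markers of other cell types were also read in these comparisons, and the lists differed in how far they moved. The 13 neutrophil markers were all below 0 in KO against Het in each cell type, with medians of -1.29 in HSC, -1.67 in MPP1 and -2.45 in MPP2, and 0 passed. Their summed level was 141 to 301 CPM in HSC KO and 196 to 665 CPM in HSC Het. It was 122 to 267 CPM in MPP1 KO and 272 to 603 CPM in MPP1 Het, and 179 to 276 CPM in MPP2 KO and 273 to 3652 CPM in MPP2 Het. None of the 13 was at 0 in a group. B cell markers summed to 16.5 to 76.9 CPM in KO groups and 25.4 to 78.3 CPM in Het groups, and 0 of 11 passed. In MPP2 against HSC in Het, 12 of 13 neutrophil markers were above 0 and 1 passed. Of the erythroid markers the globins Hbb-b2, Hba-a1 and Hba-a2, near-identical to other copies, were listed at 0 in all libraries, which says little while the handling of reads with several matches is not given. Car1 was at 248 to 401 CPM in MPP2 Het and 5.65 to 176 CPM in HSC Het, without overlap. Of 12 T and NK cell markers, 13 macrophage markers and 8 dendritic cell markers, 0 passed in KO against Het within a cell type, and 0 of 13 of stroma and endothelium. Averaged over the cell types, Zbtb46 of the dendritic list fell by 1.09 ± 0.31 (adjusted p = 0.0359) and Pdgfrb of the stroma list by 0.98 ± 0.22 (adjusted p = 0.00775), with medians of -0.42 over the 8 dendritic and -0.74 over the 13 stroma markers. In MPP1 all 13 stroma markers were below 0. The 14 stroma markers counted summed to 98.9 to 144 CPM in MPP1 KO and 161 to 177 CPM in MPP1 Het, 111 to 133 CPM in MPP2 KO and 132 to 147 CPM in MPP2 Het, and 132 to 184 CPM in HSC KO and 142 to 188 CPM in HSC Het. Lum was at 0 in HSC Het, MPP1 KO and MPP1 Het, and Dcn in HSC KO. In MPP2 against HSC in Het, Pdgfrb and the NK gene Nkg7 were higher and Klrb1c lower. The part of these cells in the differences was not tested. Without the MPP2 Het library high in Mpo, Tap1 and Psmb9 still passed in the averaged comparison and Psmb10 did not.

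Over the 24 libraries the members varied together to different degrees. The correlation of a member's log2 level with the mean of the other 9 was 0.866 for Psmb10, 0.857 for Psmb8, 0.817 for H2-K1 and 0.809 for H2-D1. It was 0.541 for Tap1, 0.548 for Tap2 and 0.607 for Tapbp. Among pairs, Psmb8 and Psmb9 had 0.904, Tap1 and Psmb9 0.812, H2-K1 and Tapbp 0.802, and Tap1 and Tapbp -0.04. Psme1 was among the 8 genes of 11026 most like the mean profile of the members, at 0.842. The other 7 were Capg at 0.862, Dcun1d1 at 0.861, Pfkp at 0.847, Aspa at 0.844, As3mt at 0.843, Spin1 at 0.842 and Casp1 at 0.839. These correlations describe 24 libraries that share cell types, genotypes and depth, and carry no test.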

How the data were processed

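The authors deposited raw counts of reads per gene for each library, with a gene length in bases beside them. Alignment software in the submitters' processing notes was TopHat2 2.0.9 and Bowtie 1.0.0 on mm9; featureCounts is listed for counting, and Trimmomatic 0.33, FastQC, R 3.1.2 and edgeR are also listed; the strand setting and the handling of reads with several matches are not given in the sources used here. The authors also deposited a normalized signal per library for 12186 genes, used for a single alternative as log2(signal + 1).

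The deposited counts were tested here with edgeR 4.0.16 under R 4.3.3, with limma 3.58.1 and DESeq2 1.42.0 as alternatives, and sequences were read in Python 3.11.15 with Biopython 1.88. Genes were filtered by filterByExpr by group with a least count of 10 and scaled by TMM, and a robust quasi-likelihood model of 9 group means left 15 residual degrees of freedom. Tests were two-sided F tests, adjusted by Benjamini-Hochberg over all 21456 genes at a threshold of 0.05. Standard errors are the absolute log2 difference over the square root of F, and so approximate. The fit was tested on simulated counts, with planted changes larger than those of the members and less spread than the common estimate for these data. That test does not show how reliable calls of the size found here are. RPKM was CPM over the deposited length. The members, lists and tests were chosen with earlier results of these data known. All members are named, and from each list up to 4 genes past the threshold by adjusted p, and Irf1 was named for KO against Het after its values were seen; a gene of the regulator list is not reported here. Genes alike were the 8 with the highest correlation and at least 5 CPM. Replicate pairs differed well beyond counting error. For MPP2 against HSC in Het, same-numbered libraries deviated together, with correlations of 0.170 to 0.361, and the replicate block kept the same count of 5 members past the threshold.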

Additional observations from a re-analysis of the deposited data

How the results depend on the processing

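Over the alternatives, 255 counts of members past the threshold lay within 1.5 times the count reported and 26 did not. The 255 include counts that stayed at 0 and falls from 3 to 2, so they say little about single calls. Psmb10, for example, passed in 11 of 30 alternatives. The 26 lay in KO against Het averaged, KO against Sham in HSC, and MPP2 against HSC and against MPP1 in Het. Of the values for single genes, 1163 kept their direction and call, 43 lost a call, 26 gained one and 48 changed sign. The leave-outs of the 2 HSC libraries with few genes, of the Mpo library, of the Het library highest in Car1 within HSC and within MPP1 (number 1 in both; below, the Car1 libraries) and of the 3 Het libraries numbered 1, and the sum over cell types, were chosen after seeing the data. The cause of these changes was not tested. KO against Het averaged over cell types gave 3 members past the threshold as reported, 5 with the replicate block, 0 with cell types summed, 1 in the authors' normalized matrix, and 2 to 6 when 1 library was left out. KO and Het libraries of the same number were not paired by the labels, and correlations of their deviations were -0.257 to 0.277 in HSC, 0.083 to 0.281 in MPP1 and 0.036 to 0.449 in MPP2; the block added Psmb8 and Nlrc5 (adjusted p = 0.0234 and 0.0340). KO against Sham in HSC gave 2 members, and 0 with library totals, with no filter and with HSC libraries alone, 1 without the 2 HSC libraries with few genes and 1 in the matrix, and 0 to 2 when 1 library was left out. MPP2 against HSC in Het gave 5, 2 without the 2 HSC libraries, 1 without the Mpo library and 1 to 5 leaving out 1 library. MPP2 against MPP1 in Het gave 0, and 3 with library totals, 1 without the Car1 libraries, 1 without the libraries numbered 1, 4 in the matrix and 0 to 1 leaving out 1 library. The number of all genes past the threshold ran from 78 with cell types summed to 2047 with the replicate block for KO against Het averaged (1230 reported), and from 2778 to 4587 for MPP2 against HSC (3853 reported). It ran from 4 to 726 in HSC, 1 to 81 in MPP1 and 37 to 173 in MPP2 for KO against Het (132, 12 and 89 reported), from 585 to 2565 for MPP2 against MPP1 (1606 reported), and from 0 to 235 for MPP1 against HSC (3 reported). For KO against Sham it ran from 38 to 1157 in HSC, 0 to 157 in MPP1 and 5 to 278 in MPP2. Scaling by library totals moved the median of all genes by -0.25 for MPP2 minus HSC, -0.19 for MPP2 minus MPP1 and -0.17 for KO minus Sham in HSC; the matrix moved that of KO minus Het in MPP1 by 0.11. Signs changed for values near 0. In HSC, KO minus Het of H2-K1 became -0.0089 with library totals, -0.098 without the Car1 libraries, -0.098 without the libraries numbered 1 and -0.036 in the matrix; without the 2 HSC libraries Tap2 became 0.11 and Tapbp 0.067. In MPP1 Tapbp became -0.014, -0.068, -0.068 and -0.071 in the same order of settings, and H2-D1 -0.061 in the matrix. Averaged, Tapbp became -0.014, -0.026, -0.046 and -0.054, and Tap2 -0.0041 in the matrix. For MPP2 minus HSC, Psmb9 became -0.0095 with RLE scaling, -0.24 with library totals, -0.12 without the Car1 libraries, -0.028 without those numbered 1, -0.012 in the matrix and -0.0099 in DESeq2, and Tap1 -0.15 with library totals and -0.17 in the matrix. For MPP2 minus MPP1, Tap1 became -0.032 and -0.083 in those 2 settings and Psmb9 -0.066 with library totals. With 1 library left out, KO minus Het in HSC ran from -0.098 to 0.21 for H2-K1, -0.16 to 0.031 for B2m, -0.21 to 0.083 for Tap2 and -0.30 to 0.052 for Tapbp, and in MPP1 from -0.068 to 0.19 for Tapbp. MPP1 minus HSC ran from -0.35 to 0.068 for Psmb8 and -0.26 to 0.0080 for Psmb9. MPP2 minus HSC ran from -0.10 to 0.24 for Tap1, -0.38 to 0.032 for Psmb8 and -0.14 to 0.15 for Psmb9. MPP2 minus MPP1 ran from -0.043 to 0.30 for Tap1, -0.18 to 0.065 for Tap2, -0.14 to 0.069 for Psmb8 and -0.022 to 0.28 for Psmb9.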
